A study of Mus musculus with 6 samples.

Results

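The genes described here encode the proteins of the mitochondrial ribosome whose symbols are Mrpl (large subunit) or Mrps (small subunit) with a number, together with Dap3. They were chosen by symbol from the protein-coding genes of a mouse annotation, pseudogenes left out. Of 79 such genes, 78 had an identifier among the 23886 in the deposited tables and 1, Mrpl53, was not analysed here. By position in the assembled ribosome, 50 belong to the large subunit, including Mrps18a and Mrps30 in spite of their symbols, and 28 to the small subunit. The genes lie on 17 chromosomes.

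Mitochondrial ribosomes, or mitoribosomes, translate the few messenger RNAs encoded by mitochondrial DNA, all of which specify subunits of the respiratory chain and of ATP synthase. The ribosomal RNAs come from the mitochondrial genome, while every protein of both subunits is encoded in the nucleus, made in the cytoplasm and imported. Some of these proteins have counterparts in bacterial ribosomes and others are found only in mitochondria. Hepatocytes are rich in mitochondria, and their respiration depends on this translation.

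Messenger RNA was measured in AML12 cells, a hepatocyte line from mouse liver, by sequencing of poly(A)-selected RNA. Untreated cells gave 3 libraries (Control 2, 3 and 4) and cells kept in a static magnetic field another 3 (SMF 1, 2 and 3). All were described as wild type in the sources read. The strength and duration of the field are unstated in the sources read, and the series title points to liver injury, Ca2+ influx and respiration of cells as the subject. Nothing states that the 3 libraries of a group came from separate cultures, so p-values measure the spread between these libraries, which may be technical.

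Library totals, recovered from the values, were lowest in SMF 1 (15514530 reads) and highest in Control 3 (18200516). Hepatocyte genes were present. Hnf4a, a hepatocyte transcription factor, had group means of 91.6 FPKM (control) and 91.4 (SMF), and Alb, serum albumin, 29.2 and 30.4. Apoa1, another hepatocyte product, was low at 0.24 and 0.43, as was Cebpa, a hepatocyte transcription factor, at 0.93 and 1.19. Krt19, a keratin of bile duct cells, stood at 1063 and 1110. Of the other bile duct markers, Krt7 had 61.9 and 62.6, Sox9 8.99 and 9.55, and Epcam only 0.0089 and 0. The fibroblast genes Col1a2 and Dcn were listed at 0 in every library. Summed over 6 fibroblast or stellate markers, the level was 1.43 to 1.92 FPKM without the field and 1.48 to 1.81 under it. Over 3 macrophage markers the sum was 2.99 to 4.33 and 3.40 to 3.73. In RNA from whole cultures, fewer cells of a type and less RNA per cell cannot be told apart.

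Promoters of the members are shown first because they hold a feature that the choice by symbol did not use. The RefSeq promoter table on build GRCm38.p6 holds 300 bases a gene, 250 before the start and 50 after it, and matched 68 of the 78 members. Dap3, Mrpl4, Mrpl13, Mrpl15, Mrpl19, Mrpl38, Mrpl54, Mrps28, Mrps34 and Mrps35 had no entry. Both strands were searched for 4 motifs. The NRF1 core GCGCATGCG, named for a factor known to drive genes of mitochondrial function, was in 10.3% of the 68 promoters and in 1.81% of the 27025 in the table. The ETS core CCGGAAG, bound by the factor family that includes GABP, was in 35.3% against 9.12%. The YY1 motif AAGATGGCG was in 11.8% against 1.49%, and the SP1 box GGGCGG in 50% against 35.9%. By subunit, the SP1 box was in 38.6% of 44 large-subunit promoters and in 70.8% of 24 small-subunit promoters. In the same order, the NRF1 core was in 13.6% and 4.17%, the ETS core in 31.8% and 41.7%, and the YY1 motif in 11.4% and 12.5%. Related lists held them too, in differing shares. Of 62 promoters of cytoplasmic ribosomal protein genes, 3.23% had the NRF1 core, 38.7% the ETS core, 6.45% the YY1 motif and 61.3% the SP1 box. Of 32 promoters of complex I genes, 6.25%, 12.5%, 15.6% and 43.8% did, in the same order. Any of the first 3 motifs was in 48.4% of the cytoplasmic list and 34.4% of the complex I list. The share with any of the 3 was 50% among the members and 11.8% among all promoters. These matches are descriptions of the letters in the window and not sites of binding.

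A set of 7 promoters shows these motifs, a pair of neighbouring genes, a family of paralogs and the ends of the range of folds. Mrps11 and Mrpl46 are neighbours on opposite strands at chr7:78782881-78783180 (forward strand) and chr7:78783040-78783339 (reverse strand), and their windows share 141 bases. Mrps18a, Mrps18b and Mrps18c are paralogs, at chr17:46110754-46111053 (forward), chr17:35916391-35916690 (reverse) and chr5:100798509-100798808 (forward). Mrpl57, at chr14:57825989-57826288 (forward), had the highest fold among members with a promoter in the table, and Mrpl40, at chr16:18876588-18876887 (reverse), had the lowest. Capitals mark the NRF1 core, the ETS core and the YY1 motif in either orientation.
Mrps11: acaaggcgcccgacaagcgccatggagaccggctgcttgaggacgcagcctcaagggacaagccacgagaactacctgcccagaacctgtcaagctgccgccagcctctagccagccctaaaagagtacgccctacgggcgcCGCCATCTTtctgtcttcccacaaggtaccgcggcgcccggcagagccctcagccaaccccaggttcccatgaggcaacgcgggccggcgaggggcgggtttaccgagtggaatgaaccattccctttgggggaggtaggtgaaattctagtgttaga
Mrpl46: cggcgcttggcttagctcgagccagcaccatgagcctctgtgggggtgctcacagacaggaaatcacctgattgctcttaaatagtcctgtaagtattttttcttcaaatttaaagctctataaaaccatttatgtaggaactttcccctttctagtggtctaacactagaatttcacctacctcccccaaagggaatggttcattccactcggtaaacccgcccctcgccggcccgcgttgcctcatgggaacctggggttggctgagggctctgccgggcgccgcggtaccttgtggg
Mrps18a: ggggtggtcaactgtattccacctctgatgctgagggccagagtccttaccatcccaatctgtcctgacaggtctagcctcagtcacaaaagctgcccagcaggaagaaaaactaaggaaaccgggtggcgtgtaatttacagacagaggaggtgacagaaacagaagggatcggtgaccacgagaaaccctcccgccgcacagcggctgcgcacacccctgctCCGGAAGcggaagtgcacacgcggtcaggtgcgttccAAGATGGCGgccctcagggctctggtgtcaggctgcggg
Mrps18b: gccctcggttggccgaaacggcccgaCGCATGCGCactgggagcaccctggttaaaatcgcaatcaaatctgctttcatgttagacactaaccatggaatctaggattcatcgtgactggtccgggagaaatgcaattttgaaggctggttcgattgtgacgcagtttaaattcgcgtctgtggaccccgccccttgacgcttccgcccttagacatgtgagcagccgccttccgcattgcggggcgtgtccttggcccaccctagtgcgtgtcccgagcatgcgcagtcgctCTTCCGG
Mrps18c: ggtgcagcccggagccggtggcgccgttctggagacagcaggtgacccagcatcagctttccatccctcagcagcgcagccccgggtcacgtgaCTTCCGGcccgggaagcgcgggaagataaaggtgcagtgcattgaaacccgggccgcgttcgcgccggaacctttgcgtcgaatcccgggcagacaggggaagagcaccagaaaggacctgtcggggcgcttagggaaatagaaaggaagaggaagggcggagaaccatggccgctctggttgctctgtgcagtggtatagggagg
Mrpl57: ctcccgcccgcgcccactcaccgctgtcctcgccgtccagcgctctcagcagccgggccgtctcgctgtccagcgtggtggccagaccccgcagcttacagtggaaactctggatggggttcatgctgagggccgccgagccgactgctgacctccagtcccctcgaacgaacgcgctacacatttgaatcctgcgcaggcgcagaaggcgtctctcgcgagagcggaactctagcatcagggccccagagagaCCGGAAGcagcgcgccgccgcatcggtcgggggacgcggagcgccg
Mrpl40: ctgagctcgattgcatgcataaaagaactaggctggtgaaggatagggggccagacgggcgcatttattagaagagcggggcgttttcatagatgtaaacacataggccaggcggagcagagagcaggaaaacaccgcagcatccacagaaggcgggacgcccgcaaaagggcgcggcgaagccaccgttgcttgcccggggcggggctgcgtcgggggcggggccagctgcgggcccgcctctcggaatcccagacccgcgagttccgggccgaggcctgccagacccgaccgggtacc
The ETS core stood in all 3 Mrps18 promoters, joined by the YY1 motif in Mrps18a and by the NRF1 core in Mrps18b. Mrps11 held the YY1 motif outside the bases it shares with Mrpl46, and the window of Mrpl46 held none of the 3. The promoter of Mrpl57 held the ETS core and that of Mrpl40 none of the 3.

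Transcripts of every member were detected. All 78 reached 1 FPKM in 3 or more libraries, the condition for testing; FPKM is the number of fragments per kilobase of annotated exons, scaled to the library total. Mean FPKM over the 6 libraries ran from 1.46 to 108, with a median of 20.7 in the large subunit and 12.4 in the small. Most lay in a middle band, with 37 members between 5 and 20 FPKM and 29 between 20 and 50, while 5 were under 5 and 7 at 50 or more. A member had 30 to 2618 reads in a library, with a median of 751. Across the 78 members, the Spearman correlation of mean FPKM with annotated exon length was -0.725. No member over 4000 bases exceeded 17.4 FPKM, and the length counts every annotated exon, used or not.

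The most abundant large-subunit member was Mrpl34, a short protein with a bacterial counterpart. Its FPKM was 104, 102 and 98.0 in Control 2, 3 and 4 and 116, 109 and 118 in SMF 1, 2 and 3. All of its SMF values exceeded all controls (log2 fold 0.17, SE 0.044, limma adjusted p = 0.164). Mrpl12, the stalk protein that contacts translation factors, was next at 87.7, 92.6 and 87.7 without the field and 101, 86.2 and 95.1 under it. Mrpl43, found only in mitochondria, measured 71.6, 75.1 and 71.8 and then 81.8, 74.5 and 81.7. In both genes SMF 2 was within or below the control values while SMF 1 and 3 lay above them.

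In the small subunit the highest levels were those of Mrps21, Mrps12 and Mrps7. Mrps7, which organises the head of the subunit in bacteria, had 42.5, 41.8 and 41.9 FPKM without the field and 43.7, 39.1 and 41.4 under it. The groups overlapped (log2 fold -0.03, SE 0.046, limma adjusted p = 0.791). At the other end, Mrps10, which lies in the head of the subunit, had 1.51, 1.65 and 1.37 FPKM without the field and 1.51, 1.45 and 1.26 under it, also overlapping. Mrpl33 and Mrps18c were the other members with the lowest means, at 1.54 and 2.35 FPKM.

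No mitoribosomal gene passed the main test of SMF against control libraries, limma on log2(FPKM + 1) with Benjamini-Hochberg adjustment over 11114 genes (0 of 78 members; background 0% in each direction). The smallest adjusted p among members in limma was 0.110, that of Mrpl4. At an unadjusted p under 0.05 in limma, 15 members (19.2%) were higher in SMF libraries and 1 (1.28%) was lower, against 9.41% and 8.57% of all genes tested. Values of the groups did not overlap for 12 members with SMF above (15.4%) and 3 with SMF below (3.85%), against 11% and 12.7% of all genes. limma-voom, run on the reads recovered from the FPKM, called 2 members, Mrpl4 and Mrpl38, both higher (background 2.18% of genes higher and 2.41% lower).

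Small positive differences prevailed among the members as deposited, and their sign depended on the scaling. Folds are differences of group means of log2(FPKM + 1), so those of low genes are understated. Of the 78 members, 57 (73.1%) had a fold above 0, against 46.7% of all genes, while after rescaling to TPM, which gives every library the same total over genes, 37 of 78 did (47.4%), against 38.8% of all genes. The median log2 fold was 0.028 over the members and -0.0095 over all genes tested. For 39 members the fold lay within 0.05 of 0 on that scale. Standard errors ran from 0.038 to 0.16, and the unadjusted 95% interval of every member lay within a 1.5-fold change.

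**Figure D1:**
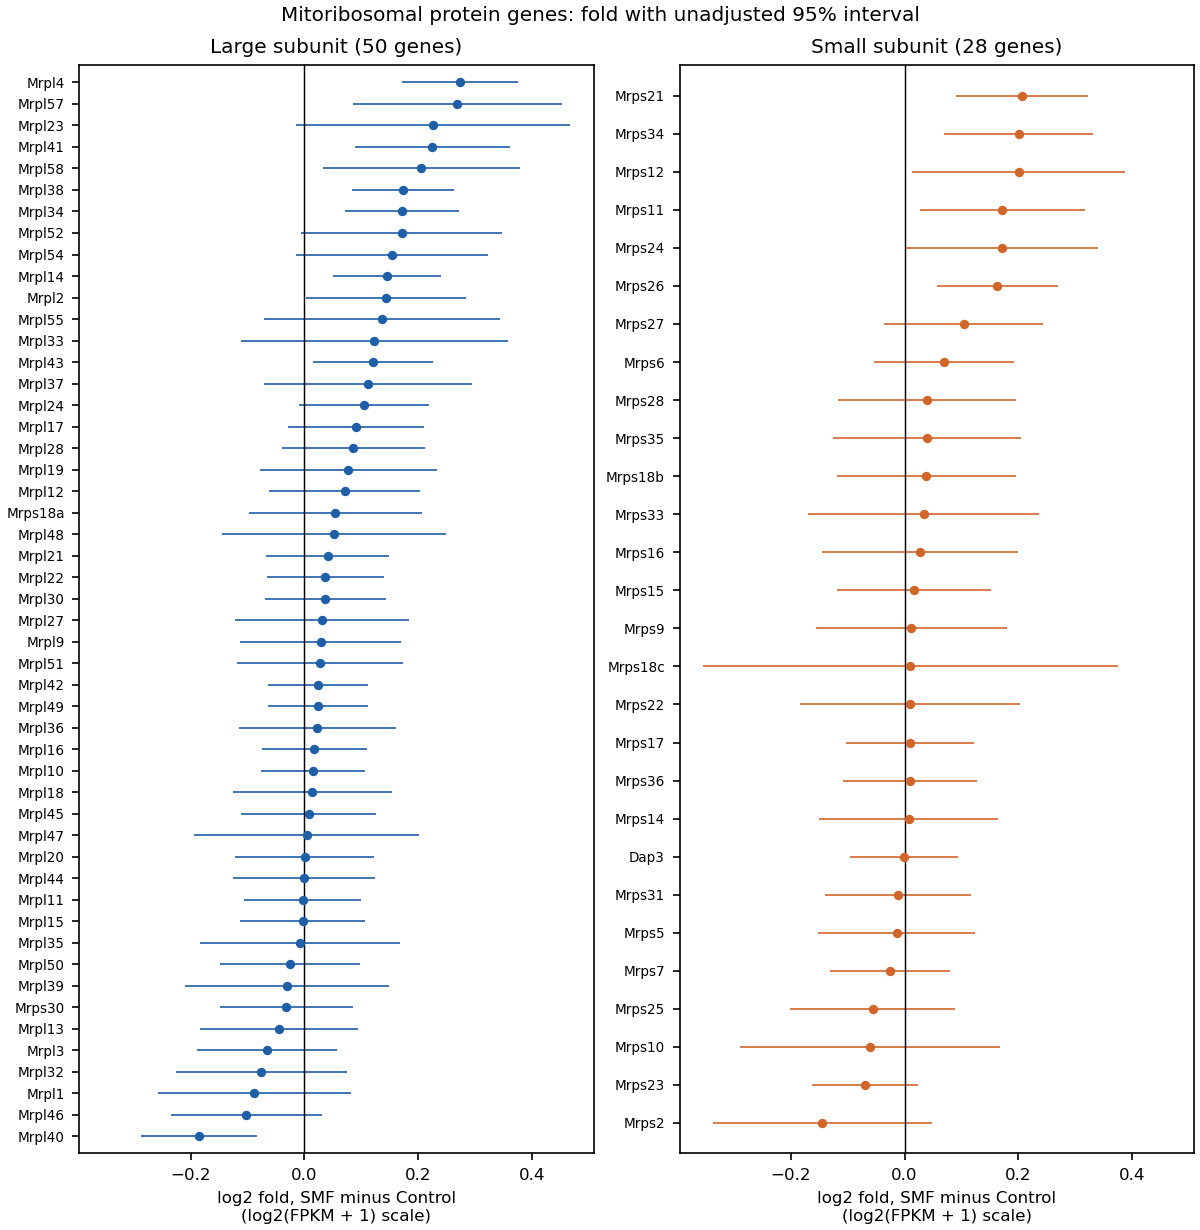
Log2 fold of SMF over control on the log2(FPKM + 1) scale for each of the 50 large-subunit (left) and 28 small-subunit genes (right), sorted by fold; lines are unadjusted 95% intervals from limma. Most points lie close to 0, between -0.19 for Mrpl40 and 0.27 for Mrpl4.

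The large and small subunits had medians 0.020 apart on the log2 scale. In each library, the median deviation of members from their own means was also compared, large minus small. It was -0.030, -0.029 and 0.040 in Control 2, 3 and 4. In SMF 1, 2 and 3 it was 0.0092, -0.010 and 0.0059, inside the control range. The SD between single libraries of a group was 0.029. The large subunit had 37 of 50 members above 0 with a median log2 fold of 0.034, and the small subunit 20 of 28 with a median of 0.014; under TPM the medians were 0.0011 and -0.018. At an unadjusted p under 0.05 in limma, 9 of 50 large-subunit members were higher and 1 lower. Of 28 small-subunit members, 6 were higher and 0 lower. Over all genes tested, 9.41% were higher and 8.57% lower at that p. A split by symbol served as a rough guide to bacterial counterparts and proteins found only in mitochondria. Their medians were 0.034 (28 genes) and 0.027 (21 genes) in the large subunit, with Mrpl55 placed in neither. In the small subunit they were 0.014 (16 genes) and 0.022 (12 genes). The large-subunit split followed the symbol number, so Mrpl47 was counted as found only in mitochondria, as Mrps36 was in the small subunit. Without Control 3 or SMF 2 the small-subunit median was 0.035 or 0.034, and without Control 2 the large-subunit median was 0.021 and the small 0.027, which reversed their order. The split by bacterial counterpart was made after the values were seen.

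Summed FPKM shows the same genes library by library. Large-subunit genes summed to 1350, 1371 and 1358 FPKM in Control 2, 3 and 4 and to 1472, 1376 and 1448 in SMF 1, 2 and 3. Small-subunit genes summed to 466, 484 and 467 and to 510, 482 and 500. The sum of SMF 2 lay just above the controls for the large subunit and inside their range for the small, below SMF 1 and SMF 3 in both. The ratio of large to small was 2.90, 2.83 and 2.91 without the field and 2.89, 2.85 and 2.90 under it, so the groups overlapped. Reads of all members took 0.385%, 0.391% and 0.386% of each control library and 0.411%, 0.392% and 0.405% of the SMF libraries.

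By the median member, SMF 1 and SMF 3 stood above the controls, and SMF 2 did not. Taking in each library the median deviation of the members from their own means (log2 scale), the large subunit stood at -0.032, -0.017 and -0.0067 in controls and at 0.054, -0.017 and 0.039 in SMF libraries. The small subunit stood at -0.0019, 0.012 and -0.046 and at 0.045, -0.0069 and 0.033. For both subunits SMF 2 was inside the control range. SMF 1, the library with the fewest reads, had the highest value of the 6 for 30 of the 78 members, and Control 2 had the lowest for 24.

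**Figure D2:**
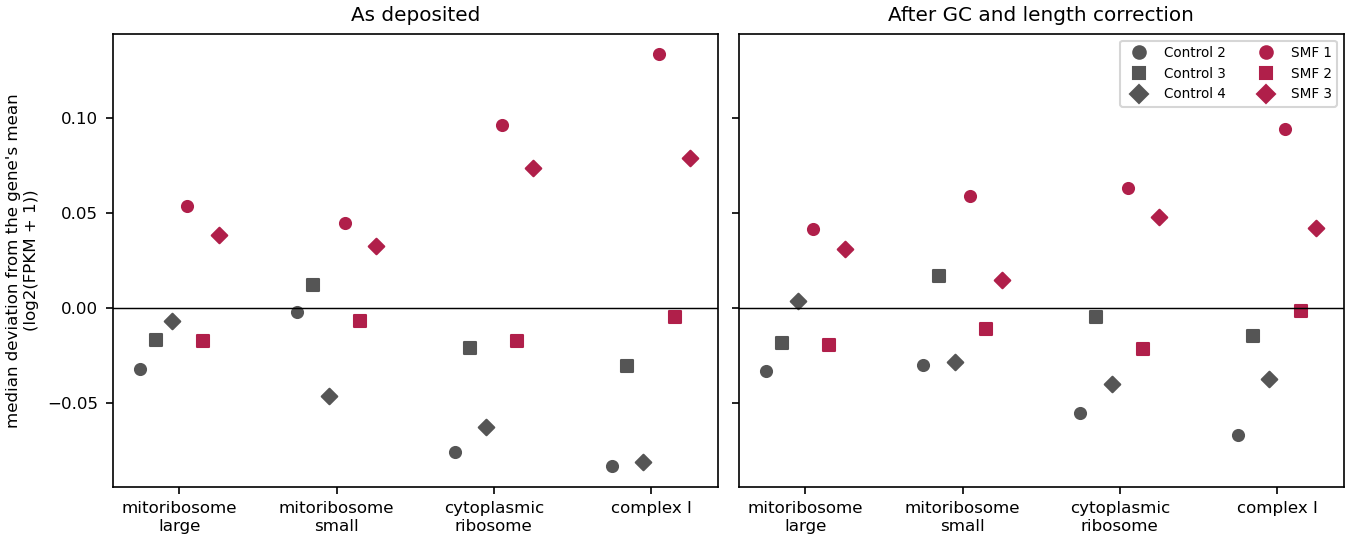
Median deviation from each gene's own mean on the log2(FPKM + 1) scale, per library, for mitoribosomal genes of each subunit, cytoplasmic ribosomal protein genes and complex I genes, as deposited (left) and corrected for GC content and length (right). Grey symbols are controls and red symbols SMF libraries; SMF 1 and SMF 3 lie above every control in each list as deposited, while SMF 2 lies inside the control range for both mitoribosomal subunits and just above it for the other lists.

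Compared lists stood further from 0 as deposited. Of 79 tested cytoplasmic ribosomal protein genes, 71 (89.9%) had a fold above 0 with a median log2 fold of 0.11, against 46.7% of all genes. Without overlap of the groups, 32 of them (40.5%) had SMF above and 0 below, against 11% and 12.7% of all genes. Of 36 complex I genes, 31 were above 0 with a median of 0.14, and 19 (52.8%) had SMF above and 0 below. After the correction for base composition and length given further on, the medians were 0.071 and 0.093, with 68 of 79 and 27 of 36 genes above 0, and for the cytoplasmic list SMF 2 (-0.022) was inside the control range (-0.055 to -0.0045). The difference between these lists and the mitoribosomal genes was not tested.

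Members at known places in the large subunit are given next, beginning with the path of the growing chain. Mrpl4 (ENSMUSG00000003299), the counterpart of a bacterial protein that lines the exit tunnel, had 22.6, 24.8 and 23.5 FPKM without the field and 29.2, 28.5 and 28.6 under it. All SMF values exceeded all control values, by 1.22-fold on means of 23.6 ± 1.10 and 28.8 ± 0.41 FPKM (SD, n = 3 each). Its log2 fold was 0.27 (SE 0.044), the highest of the 78 (limma adjusted p = 0.110; limma-voom adjusted p = 0.011). Around the tunnel exit, Mrpl23 had 5.53, 6.98 and 6.70 FPKM without the field and 8.49, 6.53 and 7.98 under it, with SMF 2 inside the control range (limma adjusted p = 0.30). Mrpl24, its neighbour there, had 16.6, 18.1 and 18.2 and then 19.3, 18.3 and 19.3, all SMF values above all controls by a narrow margin (log2 fold 0.10, limma adjusted p = 0.312). Mrpl45, which sits by the exit facing the inner membrane, had 38.4, 36.8 and 38.1 and then 40.4, 35.4 and 38.3, with the groups overlapping.

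In the stalk, where translation factors dock, the groups overlapped for every named gene. Mrpl10, which anchors the copies of Mrpl12, had 54.0, 55.0 and 54.6 FPKM without the field and 57.2, 52.8 and 55.4 under it. Mrpl11, at the stalk base, had 20.03, 21.3 and 21.9 and then 21.3, 20.7 and 21.03. Both genes overlapped between groups, with log2 folds of 0.02 and -0.0032 and limma adjusted p of 0.863 and 0.977. Mrpl12, in the same structure, had a log2 fold of 0.07 (SE 0.058, limma adjusted p = 0.535). Mrpl1, of the opposite stalk, which in bacteria guides the leaving tRNA, had 6.09, 5.44 and 6.36 FPKM without the field and 5.96, 5.13 and 5.55 under it. Its groups overlapped (log2 fold -0.09, SE 0.074, limma adjusted p = 0.549).

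Mitochondria-specific proteins of the large subunit lay on both sides of 0. Mrpl57 (ENSMUSG00000021967) had 10.3, 10.3 and 9.18 FPKM without the field and 13.02, 10.7 and 12.9 under it. SMF 2 was close to the controls though above them (log2 fold 0.27, SE 0.080, limma adjusted p = 0.180). Mrpl41 had 23.9, 24.6 and 28.04 and then 30.5, 29.5 and 29.9, with the groups apart (log2 fold 0.22, SE 0.059, limma adjusted p = 0.164). Mrpl58 (ENSMUSG00000018858), also called Ict1, is a peptidyl-tRNA hydrolase that frees stalled ribosomes; it had 14.5, 14.1 and 12.6 and then 15.3, 14.9 and 17.8. Its lowest SMF value lay just above its highest control (log2 fold 0.21, SE 0.075, limma adjusted p = 0.226), and its exons overlap the antisense gene Ict1os. Mrpl38, named after its values were seen because limma-voom called it, had 46.4, 46.5 and 47.4 FPKM without the field and 55.2, 52.1 and 51.3 under it. SMF lay above throughout (log2 fold 0.17, SE 0.039, limma adjusted p = 0.158; limma-voom adjusted p = 0.040). With the correction for GC content and length described later, its fold was 0.08 and its limma-voom adjusted p 0.485.

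At the lower end, Mrpl40 (ENSMUSG00000022706) had 24.0, 22.8 and 22.5 FPKM without the field and 19.5, 20.8 and 20.3 under it. Every SMF library lay below every control, with means of 23.1 ± 0.80 and 20.2 ± 0.63 FPKM (SD, n = 3 each). Its log2 fold of -0.19 (SE 0.044) was the lowest of the 78, and it was the 1 lower member with an unadjusted p under 0.05 (limma adjusted p = 0.161). Mrpl46 had 15.7, 17.5 and 15.9 and then 15.9, 15.4 and 14.3, with SMF 1 inside the control range (log2 fold -0.10, SE 0.058, limma adjusted p = 0.382). Mrps30, a large-subunit protein in spite of its symbol, had 6.515, 6.520 and 6.906 and then 6.507, 6.476 and 6.453, every SMF value just below the lowest control (log2 fold -0.03, limma adjusted p = 0.764).

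**Figure D3:**
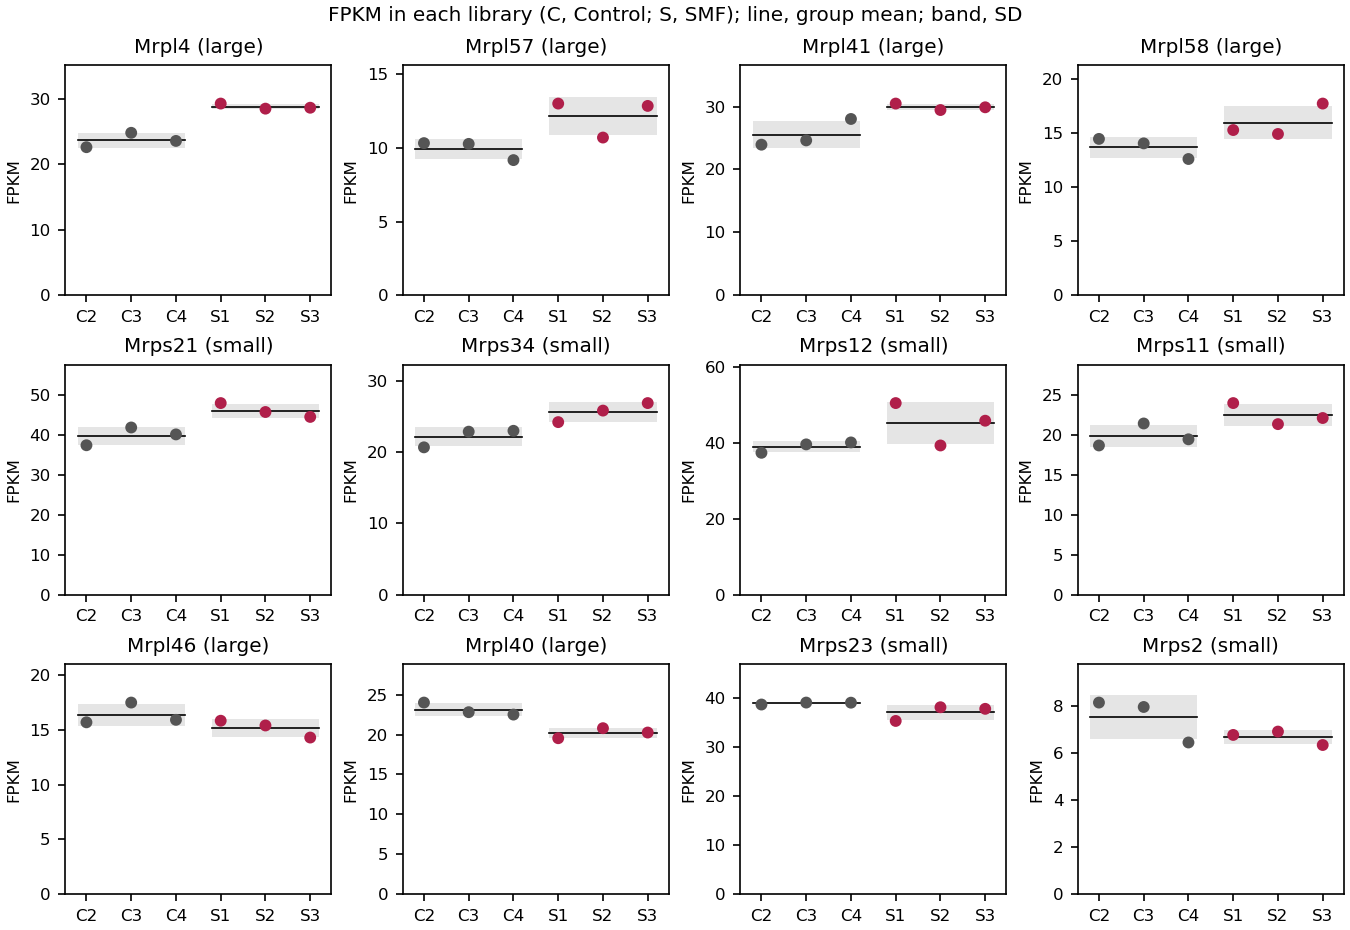
FPKM in each library for 12 mitoribosomal genes, with the group mean as a line and its SD as a band; C and S are control and SMF libraries and each vertical axis starts at 0. Mrpl4, Mrpl57, Mrpl41, Mrpl58, Mrps21 and Mrps34 have all SMF values above all control values, and Mrpl40 and Mrps23 all below. The genes were picked mostly from the ends of the range of folds, so their share without overlap is not that of all members. Over all genes tested, 11% had SMF above and 12.7% SMF below.

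Small-subunit members are given from the decoding site outward. Mrps12, the counterpart of the bacterial protein that monitors codon and anticodon pairing, had 37.4, 39.6 and 40.1 FPKM without the field and 50.4, 39.3 and 45.8 under it. SMF 2 was inside the control range and SMF 1 the highest (log2 fold 0.20, SE 0.082, limma adjusted p = 0.254). Mrps21, also with a bacterial counterpart, had 37.4, 41.9 and 40.1 and then 48.0, 45.7 and 44.5, with the groups apart (log2 fold 0.21, SE 0.051, limma adjusted p = 0.161). Mrps11, of the platform, had 18.7, 21.5 and 19.5 and then 24.0, 21.4 and 22.2, SMF 2 falling below Control 3 (log2 fold 0.17, SE 0.063, limma adjusted p = 0.226). The exons of Mrps11 and Mrpl46 overlap on opposite strands and the library kit is not stated to mark strand, so their reads cannot be fully told apart; the folds of this pair had opposite signs.

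Other small-subunit members lay on both sides of 0. Mrps34, found only in mitochondria, had 20.7, 22.9 and 23.0 FPKM without the field and 24.2, 25.9 and 26.9 under it, all above the controls (log2 fold 0.20, SE 0.057, limma adjusted p = 0.171). Its exons overlap those of Mapk8ip3 on the other strand. Mrps23, of the same kind, had 38.8, 39.2 and 39.1 and then 35.4, 38.2 and 37.9, all below the controls (log2 fold -0.07, SE 0.041, limma adjusted p = 0.396). Dap3, a GTP-binding protein first known for a role in cell death, had 17.7, 17.0 and 17.4 and then 16.9, 17.4 and 17.8. With a log2 fold of -0.00077 and a 95% interval of -0.096 to 0.095, its groups overlapped. Mrps36, placed by later work in the 2-oxoglutarate dehydrogenase complex rather than the ribosome, had 11.7, 12.4 and 12.2 and then 11.9, 11.8 and 12.9, overlapping as well. Mrps2, with a bacterial counterpart, had 8.13, 7.94 and 6.44 and then 6.76, 6.90 and 6.33, with Control 4 among the SMF values (log2 fold -0.15, SE 0.084, limma adjusted p = 0.390).

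The 3 Mrps18 paralogs, which occupy different places in the ribosome, differed in level, and none passed the test. Mrps18b was the highest, with 17.3, 17.0 and 16.2 FPKM without the field and 16.1, 19.4 and 16.6 under it. Mrps18a, the large-subunit paralog, had 11.4, 11.3 and 11.03 and then 12.9, 10.6 and 11.7. Mrps18c had 1.90, 2.71 and 2.35 and then 2.82, 1.61 and 2.69, from 30 to 53 reads a library. All 3 overlapped between groups, and the 95% intervals of their log2 folds were -0.098 to 0.21 for Mrps18a, -0.12 to 0.20 for Mrps18b and -0.35 to 0.38 for Mrps18c.

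Fold changes of the members followed the base composition of their transcripts, as those of all genes did. Across the 78 members the Spearman correlation of log2 fold with GC content was 0.54, and across 11055 genes it was 0.51; with log length it was -0.34 and -0.36. Genes are not independent replicates, and all points share the same 6 libraries. Of the 26 members with the highest GC content (52.4% to 60.8%), 24 had a fold above 0 with a median of 0.14, and 12 of the 15 higher members at an unadjusted p under 0.05 were among them. All 3935 genes in that range had a median of 0.052, and 71.9% were above 0. Of the 26 with the lowest GC content (39.8% to 47.6%), 16 were above 0 with a median of 0.01, where the 3600 genes of the same range had a median of -0.076 and 21.1% were above 0. After the correction described next, 24 of these 26 were above 0 with a median of 0.062, and 16 of the 26 with the highest GC content with a median of 0.020. This grouping by GC content was made after the values were seen.

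**Figure D4:**
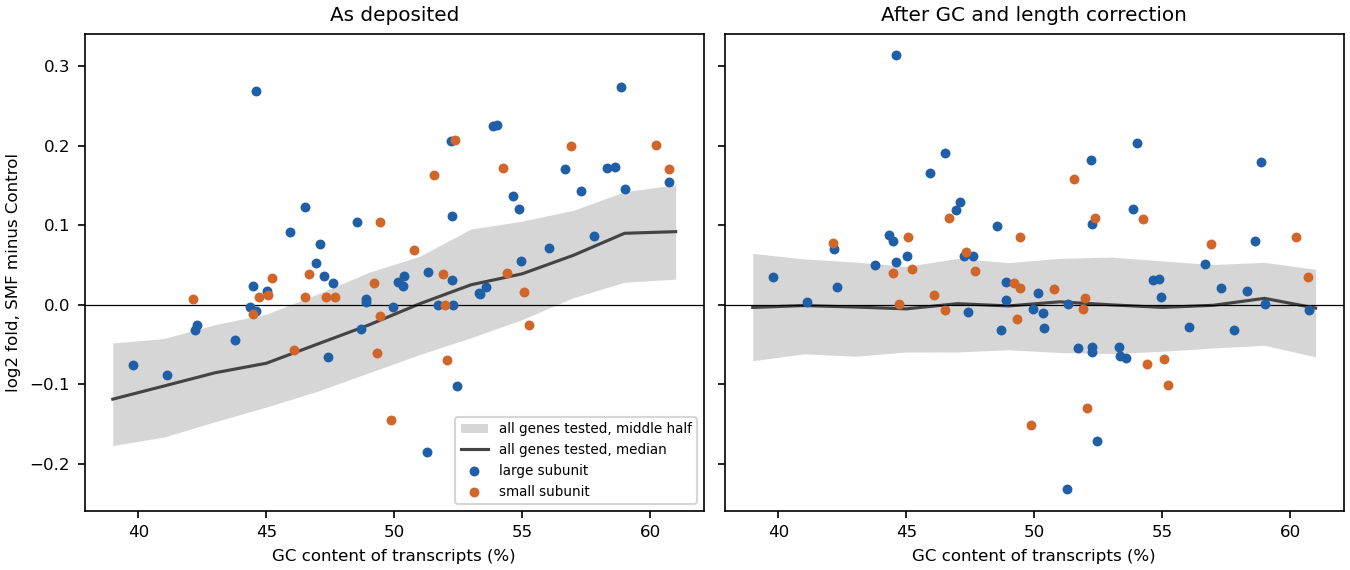
Log2 fold (log2(FPKM + 1) scale) of each mitoribosomal gene against the GC content of its annotated exons in percent, as deposited (left) and after correction for GC content and length (right); the line and band are the median and the middle 50% of all genes tested. As deposited, folds rise with GC content in both the members and all genes, and most low-GC members lie above the all-gene line; in the right panel 24 of the 26 members with the lowest GC content lie above 0.

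With a correction for GC content and length within each library, the members stayed at a small positive median and the ranking changed. Corrected folds of the 78 members had a Spearman correlation of -0.25 with GC content and 0.44 with log length. That with log length was 0.55 in the large subunit and 0.18 in the small. Across 11055 genes the values were -8.6e-05 for GC content and -0.00075 for log length. No member passed limma, 54 of 78 were above 0, and the median log2 fold was 0.026 in the large subunit and 0.031 in the small. At an unadjusted p under 0.05 in limma, 5 of 78 members were higher and 4 of 78 lower, close to the shares of all genes (6.55% and 6.09%). The 5 with such a p both before and after were Mrpl4, Mrpl57, Mrpl58 and Mrps26, all higher, and Mrpl40, lower. The other lower members with such a p after the correction were Mrpl46 (log2 fold -0.17), Mrps23 (-0.13) and Mrps7 (-0.10). Mrps26, mitochondria-specific and outside the rule for named genes, had 10.8, 11.4 and 11.2 FPKM without the field and 12.3, 12.4 and 13.1 under it (log2 fold 0.16, and 0.16 corrected). The fold of Mrpl57 went from 0.27 to 0.31 and that of Mrpl40 from -0.19 to -0.23, while that of Mrpl4 went from 0.27 to 0.18. The abundant and GC-rich Mrpl34 went from 0.17 to 0.02 and Mrps12 from 0.20 to 0.08. Folds also went from 0.17 to 0.08 for Mrpl38, from 0.20 to 0.09 for Mrps34, from 0.21 to 0.11 for Mrps21 and from 0.22 to 0.12 for Mrpl41. limma-voom with the same correction called 0 members (smallest adjusted p = 0.051, for Mrpl57), against 0.588% of all genes called higher and 0.28% lower. At an unadjusted p under 0.05 in that fit, 7 members (8.97%) were higher and 4 (5.13%) lower, close to the 7.06% and 6.45% of all genes.

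Folds can be set beside the promoter motifs shown above. The 34 members with an NRF1 core, an ETS core or a YY1 motif had a median log2 fold of 0.038, and the 34 without had 0.0086. Taken apart, the medians with and without the NRF1 core were 0.029 and 0.024. They were 0.048 and 0.011 for the ETS core and 0.079 and 0.021 for the YY1 motif. Folds of the 7 members with an NRF1 core ran from -0.075 (Mrpl32) to 0.091 (Mrpl17). These values are folds as deposited, not corrected for GC content and length, and are given without a test.

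Other genes that build or run the mitoribosome are given from lists beside the members. None passed limma in these lists, and limma-voom called only mt-Co1, lower, the highest by FPKM of the mitochondrially encoded mRNAs. Of 5 ribosome proteins without an Mrp symbol, 4 had a fold above 0 (median 0.081), with 1 higher and 1 lower at an unadjusted p under 0.05 in limma. Ptcd3, a small-subunit protein that binds RNA, was the exception, with 12.3 FPKM in each control and 9.96, 11.9 and 10.1 in SMF libraries (log2 fold -0.20, SE 0.068, limma adjusted p = 0.210). Chchd1, the most abundant of the 5, had 32.0, 31.3 and 30.7 and then 34.4, 29.5 and 36.2. After the correction the median of the 5 was 0.021, with Ptcd3 at -0.09 and Chchd1 at 0.02.

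Of 28 genes for ribosome assembly and rRNA modification, 19 were above 0 (median 0.054), with 3 higher (10.7%) and 2 lower (7.14%) at an unadjusted p under 0.05 in limma, near the 9.41% and 8.57% of all genes. After the correction the median was 0.0099, with 17 of 28 above 0. Mpv17l2, an inner membrane protein of assembly, had the highest level at 39.4, 46.0 and 43.2 FPKM without the field and 54.3, 43.2 and 49.0 under it, where SMF 2 lay inside the control range. Gtpbp10, a GTPase of large-subunit assembly, had the largest fold and a low level, at 2.04, 1.51 and 2.06 and then 1.23, 1.55 and 1.14 (log2 fold -0.31, SE 0.12, limma adjusted p = 0.239). Of 14 tested translation factors, 8 were above 0 (median 0.018), with 2 higher and 0 lower at an unadjusted p under 0.05 in limma; corrected, 10 were above 0 (median 0.029). Tufm, the elongation factor that brings tRNA to the ribosome, was the most abundant, at 62.8, 68.4 and 65.0 and then 69.9, 67.4 and 68.1. Slirp, which protects mitochondrial mRNAs, had 6.36, 5.20 and 4.99 and then 6.91, 6.51 and 7.51, with SMF above throughout (log2 fold 0.29, SE 0.089, limma adjusted p = 0.183).

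The RNAs that the mitoribosome contains or translates showed no shared direction. Of 10 tested mitochondrially encoded mRNAs, 5 had a fold above 0 and 5 below, with 1 each at an unadjusted p under 0.05 in limma. Corrected, 6 were above 0 (median 0.10, from 0.051). Of those above 0 as deposited, mt-Co2, mt-Atp6 and mt-Co3 had low means of 4.39, 1.57 and 1.61 FPKM, and mt-Nd6 and mt-Nd4 had 52.3 and 474. The untested mt-Nd3 and mt-Nd4l had means of 0.22 and 0.10 FPKM. The 5 below 0 had the highest FPKM: mt-Co1, mt-Cytb, mt-Nd1, mt-Nd2 and mt-Nd5. Their means ran from 748 to 4906 FPKM and their log2 folds from -0.17 to -0.0031. The highest by FPKM, mt-Co1, a core subunit of cytochrome c oxidase, had 5452, 4849 and 5253 without the field and 4224, 4905 and 4751 under it. SMF 2 lay above Control 3 (log2 fold -0.17, SE 0.065, limma adjusted p = 0.246, limma-voom adjusted p = 0.022, corrected fold -0.12). The ribosomal RNAs mt-Rnr1 and mt-Rnr2 had log2 folds of 0.03 and 0.09. RNA was selected on poly(A), so these levels need not stand for all molecules of the mitochondrial RNAs. How reads with several matches were handled is unstated, so a low FPKM of a mitochondrial gene need not mean few molecules.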

How the data were processed

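RNA of the 6 libraries was captured on oligo(dT) beads and made into libraries with a kit not stated to mark strand, per the labels' protocols. The authors deposited FPKM, 1 table per library, with no counts. Per the submitters' processing notes the build was GRCm39 and the tools HISAT2 2.1.0 and Bowtie2 2.2.3; counting, annotation release and handling of reads with several matches are unstated there. Symbols, GC content and exon length came from GENCODE M21 (build GRCm38), which named 23529 of 23886 identifiers, so no coordinates come from the deposited tables. Groups follow the sample titles. The members, lists, tests and alternatives were chosen with earlier results of these data known.

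The 11114 genes that reached 1 FPKM in 3 or more libraries entered limma (version 3.58.1, run under R 4.3.3) as values of log2(FPKM + 1), using a variance trend, two-sided, Benjamini-Hochberg adjusted, threshold 0.05. FPKM values were whole multiples of 1 read (100% within 0.02 reads over 22004 genes), with the length found by search where it differed from M21 (a length that always fits a gene seen in 1 library), and limma-voom used those reads. At 1 kilobase, 1 read was worth 0.0549 to 0.0645 FPKM. The correction for GC content and length was a loess (span 0.3) within each library over 11055 genes. Replicate numbers 2 and 3 occur in both groups.

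Named genes were, in each subunit, the 3 highest by FPKM, the 4 highest and 3 lowest by fold, any past the threshold, and 14 at set places in the ribosome; in each companion list, the most abundant and the largest fold, or those past the threshold. Plots were made in Python 3.11.15 using matplotlib 3.10.9.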

Additional observations from a re-analysis of the deposited data

How the results depend on the processing

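Under the alternatives run (pseudocount, filter, scaling, variance trend, threshold, GC content and length correction, limma-voom, replicate block and leaving out each library), no mitoribosomal gene was called except 2 in limma-voom on recovered reads, Mrpl4 and Mrpl38. The large-subunit median log2 fold was 0.0011 and the small-subunit median -0.018 after rescaling to TPM; in the other settings, assignment of subunits by symbol included, they were 0.019 to 0.049 and 0.011 to 0.035. With 1 library left out, the medians ran from 0.021 to 0.049 and from 0.011 to 0.035, their difference (large minus small) from -0.0056 to 0.034, and 0 members were called. The difference was -0.011 under quantile normalization, with the cause not tested. With the replicate block the medians were 0.020 and 0.012, with 0 members and 19 genes called. SMF 1 and Control 4 share their number with no other library. The folds of that fit therefore rest on Control 2, Control 3, SMF 2 and SMF 3 alone. Same-numbered libraries correlated at 0.058 and 0.046 in their deviations, and the other pairs across groups at -0.15 to 0.11. Correlations this weak cannot decide whether same-numbered libraries were paired. Of 29 named genes, 17 kept their sign in every setting and 12 did not. Over all genes, limma called 0, limma-voom 510, and limma-voom with the correction 96. Depth and 3 libraries a group limit the precision, most for Mrps18c, whose unadjusted 95% interval ran from -0.35 to 0.38.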

Other observations

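Pseudogenes of the family, left out of the members, had few reads. Mrpl48-ps ranged from 0.61 to 1.14 FPKM over the 6 libraries, Mrpl23-ps1 from 0 to 0.28 and Mrps36-ps1 from 0 to 0.18. The exons of 30 of the 78 members overlap another gene in the deposited tables, mostly on the opposite strand, and without strand marking the reads of such a pair cannot be fully told apart. Among them are Dap3 with Ash1l, Mrpl43 with Twnk, the mitochondrial DNA helicase, and Mrpl36 with Ndufs6, a complex I subunit.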
